A study of Mus musculus with 6 samples.

Results

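P2ry14 and 9 genes of UDP-glucose metabolism were followed in medullary intercalated cells of the mouse kidney early after ischemia. They are the rows of the deposited expression table named P2ry14, Ugp2, Ugdh, Pgm1, Pgm2, Gys1, Gbe1, Uxs1, Ugcg and Entpd5, 10 of 37583 gene entries, chosen by name and not by level. The IRI group held 3 samples of EGFP-positive cells taken 2 h after renal ischemia-reperfusion injury (IRI), in which blood flow to the kidney is stopped and restored, and the sham group held 3 samples taken 2 h after sham surgery. Both groups came from 12-week-old mice carrying the B1 VATPase EGFP transgene, which marks intercalated cells through a subunit of their proton pump. Each sample pooled sorted cells of 4 kidneys from 2 mice, and the length of the ischemia is not given in the sources used here. The genotype entry also names Cx3cr1 as the gene driving EGFP and the tissue entry reads epididymis, while the design text describes renal medulla.

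UDP-glucose is made inside cells from glucose 1-phosphate and UTP, and serves as the glucose donor for glycogen, for glycosphingolipids and for the quality control of new glycoproteins. Cells also release it, and outside the cell it acts on P2Y14, the Gi-coupled receptor encoded by P2ry14. In the kidney this receptor is known from intercalated cells of the collecting duct, where it has been tied to the release of chemokines that attract neutrophils.

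All 6 libraries held between 17421669 and 24245330 reads counted in genes. Markers of intercalated cells had the highest summed level of the lists examined, 22871 to 27945 CPM in IRI samples and 24129 to 29938 CPM in sham samples. CPM are read counts scaled to library size by TMM, the trimmed mean of M-values. All 10 of these markers passed the filter on low counts, of which 3 fell (Rhcg, Atp6v1c2 and Atp6v1b1) and 0 rose. Their list is longer than that of principal cells, which holds 7 genes. The principal cell gene Aqp2 averaged 6578 CPM in IRI samples and 9363 CPM in sham samples. Among intercalated cell markers only Car2 had a higher mean, 9558 CPM in IRI samples and 9443 CPM in sham samples. Principal cell markers summed to 5865 to 11548 CPM in IRI samples and 11711 to 12686 CPM in sham samples, thick ascending limb markers to 754 to 1330 CPM in IRI samples and 1157 to 1915 CPM in sham samples, and proximal tubule markers to 4064 to 7180 CPM in IRI samples and 5733 to 9216 CPM in sham samples, most of it Gpx3. In each of these 3 lists 1 tested marker fell and 0 rose. These counts, and those of the intercalated cell markers, are to be read against all genes tested. Of those, 21.2% were called lower and 24.2% higher. The part that these other tubule cells have in the results below was not tested. Endothelial markers summed to 5.77 to 14.4 CPM in IRI samples and 0.629 to 5.71 CPM in sham samples, and fibroblast and pericyte markers to 14.8 to 35.5 CPM in IRI samples and 18.4 to 83.2 CPM in sham samples, with no call in either list. Of 7 epididymis markers, 5 were below the filter, and 2 (Defb2 and Cst8) passed it and had no call. The 7 summed to 4.18 to 10.2 CPM in IRI samples and 8.02 to 13.2 CPM in sham samples. Cx3cr1 had 1 read in the IRI libraries and 1 in the sham libraries. The samples are bulk preparations, so fewer cells of a type and less RNA per cell cannot be told apart.

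Of the 10 genes, 6 were higher after IRI and 2 were lower by edgeR's quasi-likelihood test at a Benjamini-Hochberg adjusted p under 0.05, and all 10 passed the filter on low counts. P2ry14, Ugp2, Ugdh, Pgm1, Uxs1 and Ugcg rose and Pgm2 and Entpd5 fell, while Gys1 and Gbe1 had no call. Over the whole table of 13881 genes tested, 24.2% were called higher and 21.2% lower, 45.5% in all, so that calls were common outside this group too. Each IRI value exceeded each sham value for the 6 genes that rose, as for 29.2% of all genes tested, and was under each sham value for Pgm2, Entpd5 and Gbe1, as for 27.2%. The median log2 fold change (IRI over sham) of the 10 genes was 0.80, against 0.00 over all genes tested. The 6 and 2 calls were also made with 2 other tools (DESeq2 and limma-voom) and with each library left out, except that Gys1 or Gbe1 was added to the lower calls in single settings.

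**Figure D1:**
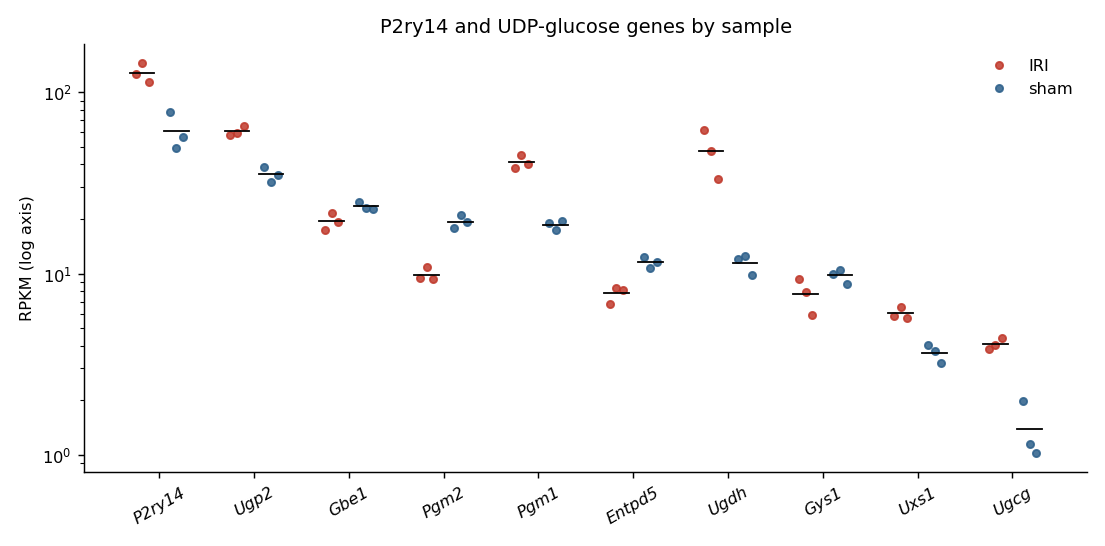
RPKM of each gene on a log axis, with one point per sample (IRI red, sham blue), a bar at each group mean, and genes ordered by their sham level. P2ry14 is the highest in both groups, and Ugdh stands at 33.4 to 61.6 RPKM in IRI samples and 9.77 to 12.5 RPKM in sham samples.

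The receptor had the highest level per length of the 10 genes. P2ry14 stood at 127, 144 and 114 RPKM (read counts scaled to gene length and library size) in IRI samples 1, 2 and 3, against 77.4, 49.0 and 56.5 RPKM in sham samples 1, 2 and 3. The groups did not overlap, and sham sample 1 was the highest of the sham group. The values rested on 7790 to 10343 reads per IRI library and 3331 to 6285 per sham library, and the log2 fold change was 1.11 ± 0.17 (SE, adjusted p = 0.00115, edgeR). P2ry14 lies inside Med12l on the opposite strand in the reference annotation, and counting ignored strand, but their annotated exons share 0% of the exon bases of P2ry14 and Med12l had 145 reads in all 6 libraries together.

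RefSeq (GRCm38.p6) gives 4 start sites for P2ry14. The window of the outermost one, 250 bases before to 50 bases after the start at chr3:59153443-59153742 on the minus strand, is shown because it is the upstream end of the receptor gene. The expression files are on mm9, and they do not tell which start was used.
P2ry14: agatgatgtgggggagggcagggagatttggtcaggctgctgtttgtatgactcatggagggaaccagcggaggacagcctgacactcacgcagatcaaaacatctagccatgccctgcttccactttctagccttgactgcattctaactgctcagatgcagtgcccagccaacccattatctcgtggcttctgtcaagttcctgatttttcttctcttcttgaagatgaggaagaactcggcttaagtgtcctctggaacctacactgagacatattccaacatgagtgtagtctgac
This window and the other 3 of P2ry14 hold no ACGTG on either strand. ACGTG is a form of the core of the element bound by hypoxia-inducible factors. Other forms, such as GCGTG, were not searched, so an absence of the element is not shown.

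Set against transcripts that mark intercalated cells in the same sample, P2ry14 was again higher after IRI. These ratios do not depend on how libraries are scaled. The ratio of P2ry14 to Atp6v1b1 RPKM, the pump subunit whose gene drives the transgene, was 0.223, 0.197 and 0.180 in IRI samples and 0.0987, 0.0537 and 0.0647 in sham samples, a difference of 1.51 on the log2 scale. Atp6v1b1 itself was lower after IRI (log2 fold change -0.37 ± 0.13, adjusted p = 0.0427, edgeR), a call lost without IRI replicate 1 or 3 or sham replicate 2 or 3 (adjusted p up to 0.119). The ratio to Atp6v1g3, another pump subunit, was 0.0484, 0.0483 and 0.0411 in IRI samples and 0.0343, 0.0140 and 0.0193 in sham samples, a log2 difference of 1.13. The groups did not overlap in either ratio. The ratio to Foxi1, the transcription factor that intercalated cells need to form, differed by 0.80 on the log2 scale, with IRI samples at 0.163 to 0.251 and sham samples at 0.0880 to 0.148. Each of the 3 ratios had p = 0.1 by a 2-sided exact permutation test, the smallest that 3 against 3 samples can give, and p = 0.133 adjusted over the 8 ratios examined.

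P2ry14 is also expressed by leukocytes, and leukocyte transcripts were present at low levels. The pan-leukocyte gene Ptprc averaged 17.4 ± 1.55 CPM in IRI samples and 10.2 ± 1.9 CPM in sham samples (SD, n = 3 each; log2 fold change 0.77 ± 0.17, edgeR adjusted p = 0.00588). The ratio of P2ry14 to Ptprc RPKM was 53.6, 64.5 and 43.3 in IRI samples and 52.1, 42.0 and 33.4 in sham samples. Those groups overlapped (log2 difference 0.34, exact permutation p = 0.2, adjusted p = 0.229). Of 15 macrophage and dendritic cell markers, 11 were tested, 4 rose (Cd68, Cd14, Ptprc and Lyz2), 0 fell and 7 had no call (median log2 fold change 0.74). The shares over all 13881 genes tested were 24.2% called higher and 21.2% called lower. Cd14 rose by 2.05 on the log2 scale (adjusted p = 0.000975, edgeR). Cd68 rose by 5.18 to 5.39 over 9 ways of fitting all libraries. Both rose more than P2ry14, while Cd74 was at 0.40 (adjusted p = 0.688, edgeR). The macrophage and dendritic cell list summed to 205 to 307 CPM in IRI samples and 67.3 to 264 CPM in sham samples. Neutrophil markers summed to 0 to 4.63 CPM in IRI samples and 0 to 0.118 CPM in sham samples, with none of 8 past the filter and Elane at 0 in every library, and lymphocyte markers to 2.69 to 25.8 CPM in IRI samples and 1.14 to 48.5 CPM in sham samples, with no call. The part of leukocytes in the P2ry14 result was not tested.

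**Figure D2:**
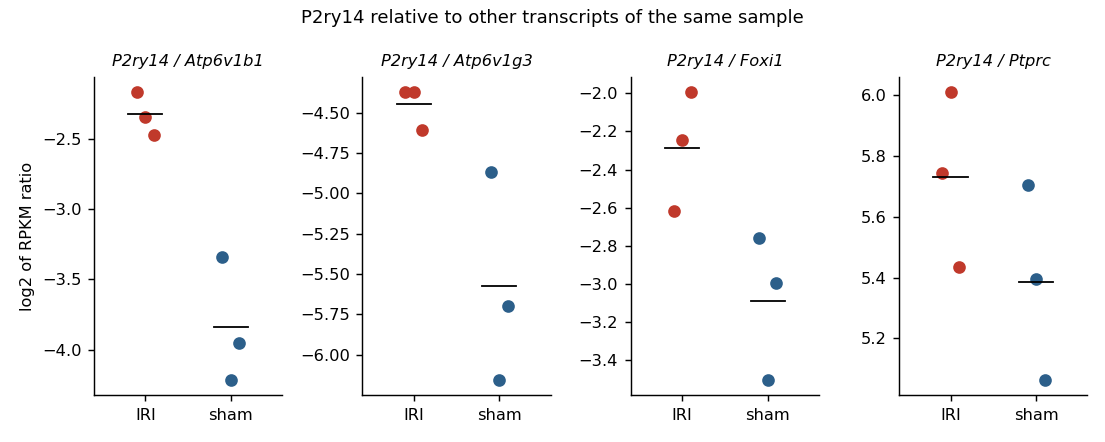
P2ry14 RPKM over the RPKM of 4 other genes in the same sample, on a log2 scale, with one point per sample and a bar at each mean. IRI points (left, red) lie above the sham points (right, blue) for Atp6v1b1, Atp6v1g3 and Foxi1, and overlap them for the leukocyte gene Ptprc.

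The enzymes that lead to UDP-glucose changed in different directions. Ugp2, the pyrophosphorylase that joins glucose 1-phosphate to UTP, rose. It stood at 58.2, 59.8 and 65.2 RPKM in IRI samples and 38.9, 31.8 and 35.1 RPKM in sham samples, with no overlap (log2 fold change 0.83 ± 0.11, adjusted p = 0.000387, edgeR). The step before it, which turns glucose 6-phosphate into glucose 1-phosphate, belongs to the phosphoglucomutases, and their rows need care. The deposited table names the 2 mouse genes the other way round from the current symbols. Its Pgm1 row carries an identifier now assigned to Pgm2, and its Pgm2 row one now assigned to Pgm1. From work on the human enzymes, the protein of the gene now called Pgm1 is the main phosphoglucomutase, and that of the gene now called Pgm2 acts mostly on pentose phosphates. The names below are those of the deposited table.

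Pgm1 (now Pgm2) stood at 38.5, 45.1 and 40.1 RPKM in IRI samples and 18.9, 17.4 and 19.5 RPKM in sham samples (log2 fold change 1.18 ± 0.10, adjusted p = 5.77e-05, edgeR). Pgm2 (now Pgm1) stood at 9.49, 10.8 and 9.30 RPKM in IRI samples and 17.8, 21.1 and 19.2 RPKM in sham samples (log2 fold change -0.93 ± 0.11, adjusted p = 0.000285, edgeR). Pgm1 was above every sham value in each IRI sample, and Pgm2 below. The ratio of Pgm1 to Pgm2 RPKM was 4.05, 4.16 and 4.31 in IRI samples and 1.06, 0.824 and 1.02 in sham samples, a 4.34-fold difference between the group means on the log scale (exact permutation p = 0.1, the smallest possible, adjusted p = 0.133). Pgm1 made up 80.7 ± 0.5% of the summed RPKM of both genes in IRI samples and 49.0 ± 3.4% in sham samples, and the sum was 51.1 ± 4.2 RPKM in IRI samples and 37.9 ± 1.1 RPKM in sham samples (SD, n = 3 each). In the reference annotation, 13.6% of the exon bases of Pgm2 overlap Itgb3bp on the opposite strand. Itgb3bp also fell (log2 fold change -0.84 ± 0.20, adjusted p = 0.00842, edgeR). Reads of the shared stretch cannot be told apart. HTSeq listed ambiguous reads on a line of their own, at 1.58% to 1.73% of all reads per library. How many of them came from this stretch was not tested. Pgm1 shared 0% of its 50-base words with transcripts of other genes.

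**Figure D3:**
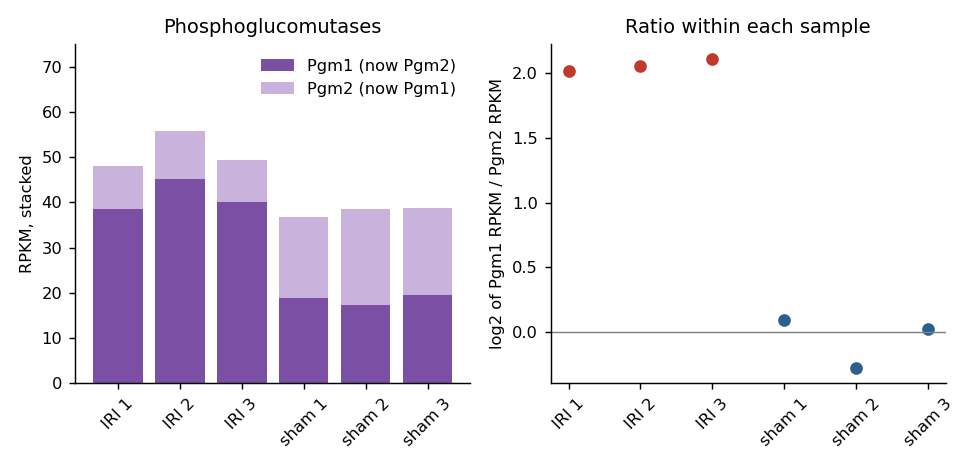
Left, RPKM of Pgm1 and Pgm2 (names of the deposited table, with current symbols in the legend) stacked for each sample. Right, the log2 ratio of Pgm1 to Pgm2 in each sample, which is 2.02 to 2.11 in IRI samples and -0.28 to 0.09 in sham samples.

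The promoter windows of these 2 genes, which moved in opposite directions, are shown with ACGTG or its reverse complement CACGT in capitals (RefSeq, GRCm38.p6, chr5:64092689-64092988 on the plus strand for Pgm1 and chr4:99929201-99929500 on the plus strand for Pgm2).
Pgm1: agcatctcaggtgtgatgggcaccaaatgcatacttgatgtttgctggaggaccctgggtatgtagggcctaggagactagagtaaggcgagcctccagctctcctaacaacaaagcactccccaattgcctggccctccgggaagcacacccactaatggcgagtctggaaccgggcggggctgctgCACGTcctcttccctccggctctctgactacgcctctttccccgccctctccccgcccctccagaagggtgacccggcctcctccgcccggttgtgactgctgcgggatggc
Pgm2: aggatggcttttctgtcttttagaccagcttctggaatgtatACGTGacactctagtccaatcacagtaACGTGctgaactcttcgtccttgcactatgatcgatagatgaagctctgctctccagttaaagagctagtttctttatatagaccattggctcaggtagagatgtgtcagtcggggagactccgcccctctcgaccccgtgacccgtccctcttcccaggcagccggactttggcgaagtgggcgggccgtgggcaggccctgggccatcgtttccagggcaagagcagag
ACGTG was searched on both strands. Pgm1 held 1 match and Pgm2 held 2 matches. One match each was also in a Ugp2 and the Entpd5 window, so 4 of the 10 genes had one in any window, while 21.8% of 27025 genes with windows in the table did. Of all 32851 windows of this length, 19.6% held the letters. The 4 genes include 2 that rose and 2 that fell.

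Both transcripts of the route from UDP-glucose to UDP-xylose rose. Ugdh, which oxidises UDP-glucose to UDP-glucuronate, stood at 61.6, 47.3 and 33.4 RPKM in IRI samples and 12.1, 12.5 and 9.77 RPKM in sham samples, and was the member with the largest change (4.24-fold, log2 fold change 2.08 ± 0.22, adjusted p = 0.00023, edgeR). IRI samples varied widely among themselves, and their lowest was above every sham sample. Uxs1, which converts UDP-glucuronate to UDP-xylose, stood at 5.88, 6.55 and 5.71 RPKM in IRI samples and 4.03, 3.75 and 3.20 RPKM in sham samples, also without overlap (log2 fold change 0.76 ± 0.13, adjusted p = 0.00145, edgeR). Of its 50-base words, 9.2% are shared with Gm44126 or Gm9311, so that its level is less certain. The ratio of Ugdh to Uxs1 RPKM was 10.5, 7.21 and 5.84 in IRI samples and 3.01, 3.34 and 3.05 in sham samples. The ratio of Ugdh to Ugp2 RPKM was 1.06, 0.790 and 0.512 in IRI samples and 0.311, 0.393 and 0.278 in sham samples. Neither ratio overlapped between groups (log2 differences 1.28 and 1.22, exact permutation p = 0.1 each, adjusted p = 0.133).

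The glycogen branch did not pass the test. Gys1, the glycogen synthase of muscle and most other tissues, stood at 9.39, 7.87 and 5.92 RPKM in IRI samples and 9.998, 10.5 and 8.82 RPKM in sham samples, which overlapped (log2 fold change -0.30 ± 0.16, adjusted p = 0.156, edgeR). Gbe1, the enzyme that branches glycogen, stood at 17.4, 21.5 and 19.3 RPKM in IRI samples and 24.8, 23.1 and 22.6 RPKM in sham samples (log2 fold change -0.24 ± 0.11, adjusted p = 0.0988, edgeR). Its IRI samples all lay below its sham samples, by less than the threshold allowed. Gys1 was called lower without IRI replicate 1 (log2 fold change -0.45, adjusted p = 0.0468) and Gbe1 without IRI replicate 2 (-0.34, adjusted p = 0.0412), and both with library size alone as the scaling. The ratio of Gys1 to Gbe1 RPKM was 0.540, 0.365 and 0.306 in IRI samples and 0.404, 0.454 and 0.389 in sham samples, with overlap (log2 difference -0.08, exact permutation p = 0.8). In the annotation, 6.47% of the exon bases of Gys1 overlap Ruvbl2, which had a log2 fold change of -0.10 ± 0.17 (adjusted p = 0.669, edgeR).

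The enzyme that uses UDP-glucose in the Golgi and the one that clears UDP in the endoplasmic reticulum moved apart. Ugcg, which adds glucose to ceramide as the first step of most glycosphingolipids, stood at 3.85, 4.04 and 4.43 RPKM in IRI samples and 1.99, 1.15 and 1.03 RPKM in sham samples, and was 3.02-fold higher (log2 fold change 1.59 ± 0.24, adjusted p = 0.000896, edgeR). It had the fewest reads of the 10 genes, with 101 in sham replicate 3. Entpd5, which hydrolyses the UDP left over when glycoproteins are glucosylated, stood at 6.83, 8.38 and 8.17 RPKM in IRI samples and 12.4, 10.8 and 11.5 RPKM in sham samples, and fell (log2 fold change -0.53 ± 0.11, adjusted p = 0.00484, edgeR). Neither gene's groups overlapped.

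**Figure D4:**
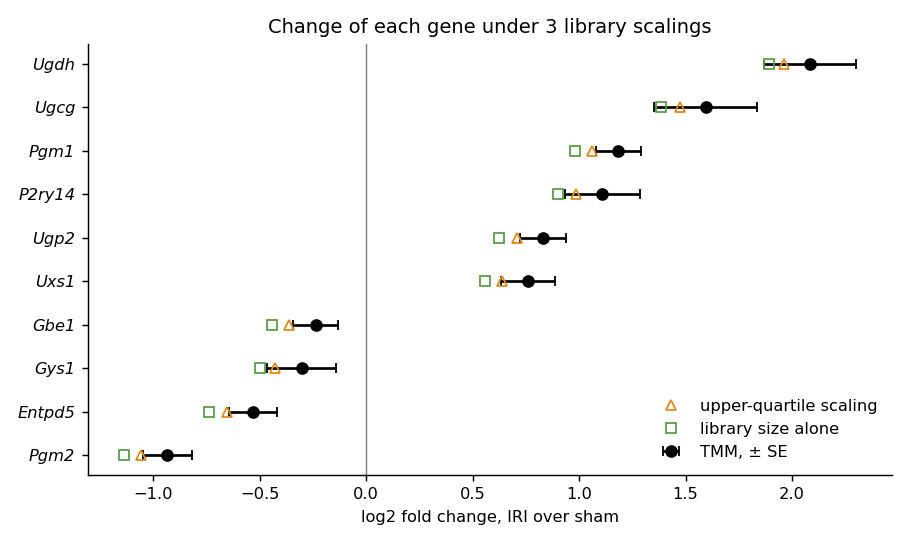
Log2 fold change (IRI over sham) of each gene, as fitted with TMM scaling (black, with SE) and as fitted with upper-quartile scaling (triangles) or library size alone (squares). All 10 genes keep their direction, and both other scalings move every value downward.

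The order of the 10 levels differed between groups. By mean RPKM per gene, the order in IRI samples was P2ry14 (128 ± 15), Ugp2 (61.1 ± 3.6), Ugdh (47.4 ± 14.1), Pgm1 (41.2 ± 3.4), Gbe1 (19.4 ± 2.1), Pgm2 (9.87 ± 0.83), Entpd5 (7.79 ± 0.84), Gys1 (7.72 ± 1.74), Uxs1 (6.05 ± 0.45) and Ugcg (4.11 ± 0.30). In sham samples it was P2ry14 (61.0 ± 14.7), Ugp2 (35.3 ± 3.5), Gbe1 (23.5 ± 1.1), Pgm2 (19.4 ± 1.6), Pgm1 (18.6 ± 1.1), Entpd5 (11.6 ± 0.8), Ugdh (11.5 ± 1.5), Gys1 (9.77 ± 0.86), Uxs1 (3.66 ± 0.42) and Ugcg (1.39 ± 0.52), with SD and n = 3 in each group. Sample ranges of neighbours in the order overlapped for Ugp2 and Ugdh, Ugdh and Pgm1, Entpd5 and Gys1, and Gys1 and Uxs1 in IRI samples, and for Pgm2 and Pgm1, Entpd5 and Ugdh, and Ugdh and Gys1 in sham samples. The enzyme Ugdh was thus the member that moved furthest in rank, to place 3 in IRI samples against place 7 in sham samples.

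Across the 6 samples, log2 CPM of P2ry14 ran closest to that of Smad1, Mier3, Irf2, Socs2 and Adipor1 among 8167 genes compared (Pearson's r 0.997 to 0.999, n = 6 samples in 2 groups). Socs2, a feedback inhibitor of cytokine receptors, stood at 34.8 to 44.8 CPM in IRI samples and 6.75 to 16.3 CPM in sham samples, with sham sample 1 the highest of its group as for P2ry14. Such likeness was common, since 530 of the genes compared had r above 0.95, and the points share 6 libraries in 2 groups that differ in level. Among the other 9 members, r with P2ry14 was 0.92 to 0.97 for the 5 that rose, and -0.53 to -0.94 for the other 4.

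Other genes of the pathway, from lists that exclude the 10 members, also moved in both directions. So did the whole table, with 24.2% of all genes tested called higher and 21.2% lower. The counts of each list below are to be read against these shares. In UDP-sugar interconversion, 6 of 12 tested genes rose and 3 fell (1 fell without IRI replicate 1 or sham replicate 2, 5 fell with upper-quartile scaling, and 5 rose and 5 fell with library size alone; median log2 fold change 0.63). Uap1l1, a relative of the enzyme that makes UDP-N-acetylglucosamine, rose (log2 fold change 1.10 ± 0.14, adjusted p = 0.000388, edgeR), and Gne, which starts sialic acid synthesis from that sugar, fell (-1.06 ± 0.14, adjusted p = 0.000448, edgeR). Galactokinase Galk1 had a log2 fold change of -0.23 ± 0.09 (adjusted p = 0.0567, edgeR).

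Glucose entry and the glycosphingolipid steps after Ugcg held larger changes. Among 6 tested genes of glucose entry and glucose 6-phosphate, 2 rose and 2 fell. The median was 0.20, and 0.088 without IRI replicate 2, 0.076 with upper-quartile scaling, -0.0013 with library size alone and -0.076 with no filter. The glucose transporter Slc2a1 averaged 578 ± 191 CPM in IRI samples and 169 ± 22.5 CPM in sham samples (log2 fold change 1.77 ± 0.25, adjusted p = 0.00118, edgeR). The insulin-responsive transporter Slc2a4 fell (-0.83 ± 0.13, adjusted p = 0.0011, edgeR), as did Slc37a4, which carries glucose 6-phosphate into the endoplasmic reticulum (-1.40 ± 0.14, adjusted p = 0.000108, edgeR). In the list of glucosyl transfer and glycosphingolipids, 4 of 11 tested genes rose and 2 fell. The median was 0.37, and 0.053 without IRI replicate 2, 0.17 with library size alone and 0.20 with no filter. B4galt5 and B4galt6, which add galactose to the product of Ugcg, were 2.30 ± 0.14 and 1.91 ± 0.13 higher on the log2 scale (adjusted p = 1.22e-05 and 1.78e-05, edgeR), and the lysosomal galactosidase Gla rose by 1.55 ± 0.22 (adjusted p = 0.000616, edgeR).

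Genes of glycogen turnover mostly had no call, while 45.5% of all genes tested were called. Of 21 tested, 1 rose and 5 fell (2 rose and 3 fell without sham replicate 2, and 8 fell with library size alone; median -0.33, and -0.53 with library size alone). Ppp1r3c, which brings a phosphatase to glycogen and so favours its synthesis, had 1, 6 and 6 reads in IRI libraries and 61, 86 and 55 in sham libraries (log2 fold change -3.86 ± 0.51, adjusted p = 0.000404, edgeR). Gsk3b, a kinase that inhibits glycogen synthase, rose (0.96 ± 0.13, adjusted p = 0.000458, edgeR), and Phkg1, a catalytic subunit of phosphorylase kinase, fell (-1.56 ± 0.35, adjusted p = 0.00632, edgeR). The 3 glycogen phosphorylases, chosen after their values were seen, had no call. Pygb and Pygl had log2 fold changes of -0.33 ± 0.16 and -0.16 ± 0.13 (adjusted p = 0.12 and 0.356, edgeR). Pygm stood at 6.96, 8.20 and 37.1 CPM in IRI samples and 60.7, 38.3 and 53.3 CPM in sham samples, with no overlap and IRI sample 3 far above the other two (log2 fold change -1.55 ± 0.71, adjusted p = 0.135, edgeR).

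Pyrimidine supply, which provides the UTP for Ugp2, was divided. Of 18 tested genes, 5 rose (3 without IRI replicate 2, sham replicate 1 or sham replicate 3) and 7 fell (10 with library size alone or upper-quartile scaling; median -0.16, and -0.36 and -0.28 with these scalings). Cmpk1, the kinase that makes UDP from UMP, averaged 435 ± 12.7 CPM in IRI samples and 226 ± 14.1 CPM in sham samples (log2 fold change 0.94 ± 0.10, adjusted p = 0.000112, edgeR). Dhodh, an enzyme of new pyrimidine synthesis, and the uridine phosphorylase Upp2 fell (-1.01 ± 0.10 and -1.44 ± 0.18, adjusted p = 0.000112 and 0.000331, edgeR).

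**Figure D5:**
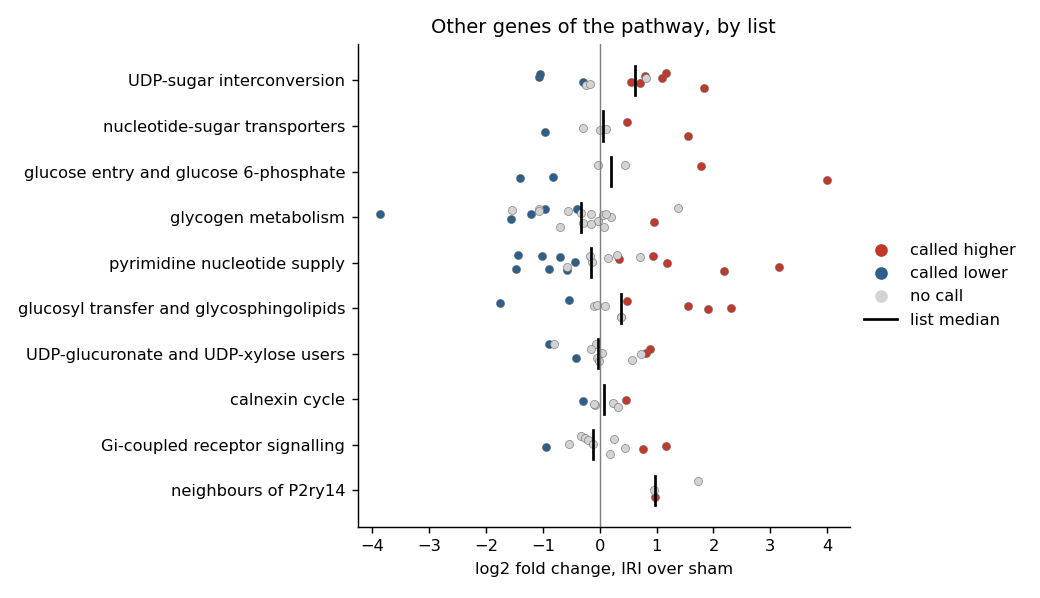
Log2 fold change (IRI over sham) of every tested gene of the 10 pathway lists, one point per gene, coloured by its call, with a bar at the list median. Each list except the neighbours of P2ry14 holds genes called in both directions.

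Among carriers and users of the sugars, calls went in both directions, as over all genes tested (24.2% higher and 21.2% lower). Of 6 nucleotide-sugar transporters, 2 rose (Slc35b1 and Slc35d2) and 1 fell (Slc35b4, log2 fold change -0.97 ± 0.17, adjusted p = 0.00161, edgeR), with a median of 0.06. The median was -0.064 with upper-quartile scaling, -0.14 with library size alone and 0.022 with no filter, and between -0.018 (without sham replicate 2) and 0.092 with single libraries left out. Of 28 enzymes that use UDP-glucuronate or UDP-xylose, 12 were tested, 2 rose and 2 fell (1 fell without sham replicate 3, and 5 rose with no filter). The heparan sulfate polymerase Ext1 (0.88 ± 0.14, adjusted p = 0.00115, edgeR) and the xylosyltransferase Gxylt1 (0.81 ± 0.15, adjusted p = 0.00266, edgeR) rose, and Xylt2, which starts glycosaminoglycan chains with xylose, fell (-0.90 ± 0.15, adjusted p = 0.00118, edgeR). All 3 hyaluronan synthases listed (Has1, Has2 and Has3) were below the filter. In the calnexin cycle, Calr rose (0.46 ± 0.13, adjusted p = 0.0151, edgeR) and Ganab fell (-0.29 ± 0.10, adjusted p = 0.0406, edgeR) of 6 tested. Calr lost its call without IRI replicate 2 or sham replicate 2 and Ganab without IRI replicates 1 or 2 or sham replicates 1 or 3 (adjusted p up to 0.0567 and 0.114), and Calr also with library size alone (adjusted p = 0.0716). Pdia3, a disulfide isomerase of the cycle, was called higher only without IRI replicate 1 among the left-out libraries (adjusted p = 0.0173, and 0.058 with all), and with DESeq2 (adjusted p = 0.0298).

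Downstream of the receptor, 2 of 11 tested genes of Gi-coupled signalling rose and 1 fell, against 24.2% and 21.2% of all genes tested. In this list 2 fell without IRI replicate 2 or 3, and 3 with upper-quartile scaling or library size alone. With no filter, 3 rose and 2 fell. The inhibitory G protein subunits Gnai3 and Gnai2 were 1.16 ± 0.09 and 0.75 ± 0.11 higher on the log2 scale (adjusted p = 3.61e-05 and 0.000893, edgeR). Gnai1 had a log2 fold change of -0.34 ± 0.14 (adjusted p = 0.0799, edgeR) and was called lower with upper-quartile scaling and library size alone. With single libraries left out, the adjusted p of Gnai1 ranged from 0.0191 to 0.183 (edgeR). The adenylyl cyclase Adcy6, of the enzyme family that Gi proteins inhibit, fell (-0.94 ± 0.15, adjusted p = 0.000987, edgeR). Around the P2ry14 locus, the related receptor genes P2ry12 and P2ry13 were below the filter. The ubiquitin ligase Siah2 rose (0.97 ± 0.15, adjusted p = 0.000844, edgeR), and Gpr171 and Med12l had log2 fold changes of 1.73 ± 0.68 and 0.95 ± 0.48 (adjusted p = 0.072 and 0.135, edgeR). Gpr171 was called without IRI replicate 2 or sham replicate 3 (log2 fold change 2.06 and 2.35, adjusted p = 0.0417 and 0.0423), and with DESeq2 (1.71, adjusted p = 0.0218).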

How the data were processed

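RNA of sorted EGFP-positive cells was amplified with a SMARTer kit and sequenced, per the labels' protocols. The authors deposited read counts per gene, which are whole numbers and not normalized, and RPKM values with gene symbols and lengths, per the file headers. Above 50 reads, deposited RPKM was the count over length and over 0.917 to 1.09 times the library's gene total, so both carry the same information. The submitters' processing notes name STAR, HTSeq, edgeR and mm9, and the file names state counting without strand. Of all reads, 49.1% to 50.7% were counted in genes and 39.9% to 42.4% had no unique alignment, and HTSeq's 5 summary lines stayed out of library sizes and tests.

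Samples were grouped by title. Counts were fitted with edgeR 4.0.16 in R 4.3.3 (filterByExpr, 13881 genes, TMM, robust quasi-likelihood, group as the only term, Benjamini-Hochberg over all genes tested, call under 0.05). Standard errors come from the F statistic. Counts were also tested with DESeq2 1.42.0 and limma 3.58.1 (voom). The labels do not say whether the pools of a group were separate experiments, and p-values reflect only how far these pools differ, which may be technical. No library repeated another (chi-square over degrees of freedom at least 18.3 within a group). In simulated counts of IRI against sham (13621 genes), the fit called 71 of 100 genes with a 2-fold change, 92 of 95 with a 4-fold change and 6 of 13426 with none. Ratios used SciPy 1.17.1.

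The members and lists were chosen with earlier results of these data known. The rule named all 10 members, up to 3 called and 1 uncalled gene per pathway list by smallest p and highest level, the 2 marker genes of highest level per cell type, and the 5 genes most like P2ry14 in log2 CPM (mean log2 CPM of at least 3). Only part of these is described and not all are reported here, and Pygb, Pygl, Pygm, Med12l, the genes below the filter, Ptprc, Cd68, Lyz2 and Cx3cr1 were chosen outside it. Promoter windows are from RefSeq (GRCm38.p6) and matched all 10 members by current symbol; overlaps and shared 50-base words used GENCODE M21, from whose build no coordinates were carried over to mm9. Protein sequences are not used here.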

Additional observations from a re-analysis of the deposited data

How the results depend on the processing

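Each of the 10 genes was refitted in 14 other settings. All 10 kept their direction in each, and the 8 called genes kept their calls. Gbe1 gained a call with upper-quartile scaling (-0.36, adjusted p = 0.0193) and library size alone (-0.44, adjusted p = 0.00542), and Gys1 with library size alone (-0.50, adjusted p = 0.0425), where 4 members were lower. With single libraries left out, Gys1 ranged from -0.45 to -0.14 and Gbe1 from -0.34 to -0.15, and the count of lower members from 2 to 3. Upper-quartile scaling moved the median log2 fold change of all genes by -0.12, and library size alone by -0.20. Of all calls, 53.3% were higher with TMM, 42.0% under the upper quartile and 35.6% under library size. The log2 difference of the Gys1 to Gbe1 ratio ranged from -0.31 to 0.10 with libraries left out, the positive value without IRI replicate 3. Slc35a3 and Alg5, not called, were at 0.01 and 0.10 with TMM. The upper quartile put Slc35a3 at -0.11 and Alg5 at -0.025, library size alone put them at -0.19 and -0.10, and Slc35a3 was at -0.023 with no filter and between -0.076 and 0.047 with libraries left out. For these the cause was not tested.

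Samples with the same replicate number had correlated deviations of 0.18, 0.095 and 0.18 over genes, and each sample correlated best with its own number, a hint from the data only. The replicate block left 6 members higher and 2 lower, with P2ry14 at 1.13 (adjusted p = 0.00273), and called 3368 genes higher and 3095 lower, against 3364 and 2948 without it. Among the list genes named, Ganab lost its call under it (adjusted p = 0.0541) and Gnai1 (0.048), Pdia3 (0.0363) and Gpr171 (0.00912) gained one, so that 2 genes of Gi signalling fell.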
